A study of Mus musculus with 8 samples.

Results

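Nuclear genes for the subunits of mitochondrial oxidative phosphorylation were followed in whole B16F1 melanoma tumours. They were chosen by name, as the Ndufa, Ndufb, Ndufc, Ndufs and Ndufv genes of complex I, the Sdha to Sdhd genes of complex II, the Uqcr genes of complex III, the Cox4 to Cox8 genes of complex IV and the Atp5 genes of complex V. Of 18193 genes with a probe set that names them alone, 81 fitted, and each was read from its brightest such probe set. The signal of 76 of them reached the level at which genes were tested (a mean log2 signal of 6.41, or a signal of 68.8), as it did for 11345 genes in all. By complex these were 34 of 35 genes in complex I, 4 of 4 in II, 8 of 8 in III, 13 of 17 in IV and 17 of 17 in V.

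B16F1 is an established mouse melanoma line, and its cells had been placed under the skin of one hind limb in 5 to 7 mice of each host. One host lacks both TNF receptors (TNFR 1, 2 -/-, here TNFR KO). Its host strain is labelled C57BL/6, while its breeders carried the Tnfrsf1a[tm1Imx] and Tnfrsf1b[tm1Imx] alleles on a B6;129S background. The other is wild-type C57BL/6 (WT). Mice were 8 to 12 weeks old, and tumours had reached 268 to 478 cubic mm when they were irradiated or left alone. The groups were TNFR KO irradiated, TNFR KO untreated, WT irradiated and WT untreated, where irradiated means a single 20 Gy dose of X-rays to the tumour-bearing limb, and tumours were taken at 5 h. The design asks which transcripts go with greater radiosensitivity of the tumour when its stroma cannot receive TNF signals. Receptor loss concerns the host only, since the tumour cells of every group carry their own receptor genes. Each group is 1 pool of RNA measured on 2 arrays, so the spread between duplicates is that of arrays and not of animals.

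Complexes I to IV form the respiratory chain of the inner mitochondrial membrane. Complexes I and II pass electrons from NADH and succinate to ubiquinone, complex III passes them on to cytochrome c, and complex IV to oxygen. Complexes I, III and IV pump protons, and the proton gradient drives ATP synthesis by complex V. Nearly all subunits are encoded in the nucleus, and their genes are known targets of the factors NRF1 and GABP and of coactivators of the PGC-1 family. Melanoma cells use both glycolysis and respiration, and the coactivator PGC-1 alpha is known as a driver of respiration in part of them.

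The whole-tumour label was checked against its markers. All 9 melanocyte markers were above the level tested. Their summed signal was 173036 to 182322 in TNFR KO irradiated and 171757 to 181623 in TNFR KO untreated arrays. It was 180003 to 200952 in WT irradiated and 165338 to 176254 in WT untreated arrays. Over both treatments 0 markers were higher and 1, Mitf, was lower in TNFR KO hosts (12% and 18.9% of all tested genes). Its log2 difference was -0.89 (adjusted p = 0.00317 in limma), a call lost without the filter on dim genes. Control transcripts added before labelling read 5.0 to 52.9 on the TNFR KO arrays and 2736.4 to 28571.7 on the WT arrays. Host and target preparation thus cannot be told apart wherever hosts are compared. In WT hosts each control also read higher on irradiated than on untreated arrays. The means were 27784 and 16989 (Dap), 9373 and 4923 (Lys), 6047 and 2743 (Phe), and 11905 and 5687 (Thr). Irradiation in WT hosts thus cannot be told apart from target preparation either, nor can a difference between hosts in the response to it. The authors had scaled all arrays to a common trimmed mean signal. Duplicates differed by a median of 0.034 to 0.071 on the log2 scale across the subunit genes. Values are MAS5 signals, log2 differences are of signal + 16, and errors are standard errors from limma.

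The promoters of 66 of the 81 genes were found in RefSeq (build GRCm38.p6, 250 bases before to 50 bases after the start of the gene), 71 promoters in all. They were searched on both strands for letters that known regulators of these genes bind. GCGCNTGCG, the core of the NRF1 motif, was in 23 of 71 (32.4%), against 6.31% of all 32851 promoters. CCGGAAG, bound by ETS factors such as GABP, was in 17 (23.9%), against 8.86%. AAGATGGCG, bound by YY1, was in 6 (8.45%), against 1.40%. ACGTG, the core of the hypoxia response element, was in 19 (26.8%), against 19.6%. The subunit promoters held 57.8% G and C, against 53.8% in all promoters, and such letters are a description and not evidence of binding. The promoters of Sdha, Sdhd and Ndufb6 are shown because these genes stand apart from the other subunits below. They are written 5′ to 3′ on the strand of the gene, with matches on either strand in capitals. The Sdha promoter (chr13:74350191-74350490, minus strand) holds 3 NRF1 matches and 1 ACGTG. The Sdhd promoter (chr9:50603800-50604099, minus strand) holds 1 NRF1 match and 1 ETS match, and the Ndufb6 promoter (chr4:40279372-40279671, minus strand) holds 1 ETS match.
Sdha: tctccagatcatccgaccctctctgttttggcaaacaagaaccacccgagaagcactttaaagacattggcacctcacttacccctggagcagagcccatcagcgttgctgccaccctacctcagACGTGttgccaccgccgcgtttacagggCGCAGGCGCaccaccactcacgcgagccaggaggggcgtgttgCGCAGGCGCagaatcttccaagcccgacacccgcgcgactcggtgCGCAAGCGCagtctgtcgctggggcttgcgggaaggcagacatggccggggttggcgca
Sdhd: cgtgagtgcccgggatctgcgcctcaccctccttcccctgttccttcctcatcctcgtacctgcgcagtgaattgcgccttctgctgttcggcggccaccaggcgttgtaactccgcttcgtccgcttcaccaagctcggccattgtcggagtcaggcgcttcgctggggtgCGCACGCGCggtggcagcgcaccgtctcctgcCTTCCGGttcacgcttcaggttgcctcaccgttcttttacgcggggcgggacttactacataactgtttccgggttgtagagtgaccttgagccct
Ndufb6: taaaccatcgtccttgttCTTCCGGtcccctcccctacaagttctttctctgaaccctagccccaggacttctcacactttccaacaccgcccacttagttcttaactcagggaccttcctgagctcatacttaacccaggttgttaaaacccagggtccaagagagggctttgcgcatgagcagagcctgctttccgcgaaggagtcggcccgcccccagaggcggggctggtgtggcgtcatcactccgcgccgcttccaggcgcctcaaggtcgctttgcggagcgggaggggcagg

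Irradiation changed the subunit transcripts little. In the fit over both hosts, 0 of the 76 tested genes were higher (1.55% of all tested genes were) and 0 were lower (0.353% of all) at an adjusted p under 0.05 in limma. At an unadjusted p under 0.05 there were 2 higher, Ndufa4l2 and Ndufb6, and 1 lower, Ndufs1, 3 of 76 in all against 16.7% of all tested genes. No subunit gene reached 2-fold together with that adjusted p in either host. In TNFR KO hosts this was 0 higher and 0 lower, where 0.881% and 0.485% of all tested genes were called, with 31 of 76 subunit genes at an unadjusted p under 0.05 (39.0% of all tested genes). In WT hosts it was again 0 and 0, where 2.25% and 0.203% of all genes were called, with 46 at an unadjusted p under 0.05 (39.9% of all). RNA of whole tumours cannot tell fewer cells of a type from less RNA per cell, here or in any comparison that follows.

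Most subunit genes nevertheless read slightly higher after irradiation on the authors' scaling. The median log2 difference was 0.14 in TNFR KO hosts, where 65 of 76 were above 0, and 0.19 in WT hosts, where 67 of 76 were above 0. Over all tested genes the median was -0.02 in each host, with 47.3% of genes above 0. These sizes correspond to 1.10-fold and 1.14-fold. The size of this shift depended on the scale of the arrays. Under quantile normalization the medians were 0.034 in TNFR KO hosts and 0.014 in WT hosts, with 52 and 43 of 76 above 0. Over all tested genes the medians were then 0.0038 and -0.023. Centring each array on its median moves every gene by the same amount, so it left the distance between the subunits and all genes as it was. The subunit median was then 0.11 in TNFR KO hosts, with 61 of 76 above 0, and -0.07 in WT hosts, with 26 of 76 above 0, against -0.05 and -0.28 over all tested genes. Of the 76 genes, 68 were among the 1135 brightest tested genes, and the other 1067 of those had medians of 0.073 in TNFR KO and 0.086 in WT hosts. Melanocyte markers had a median of -0.01 in TNFR KO and 0.24 in WT hosts. The part of brightness in the subunit values was not tested.

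**Figure D1:**
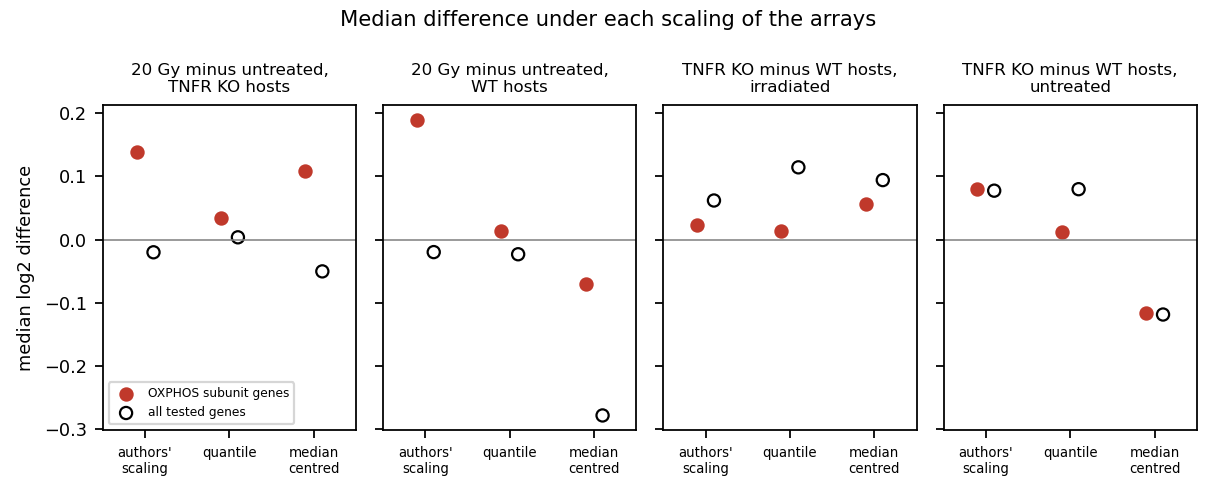
Median log2 difference of the 76 tested subunit genes (filled) and of all 11345 tested genes (open) under the authors' scaling, quantile normalization and centring of each array on its median. Panels show irradiated minus untreated in each host and TNFR KO minus WT in each treatment; the filled points after irradiation lie at 0.14 and 0.19 on the authors' scaling and at 0.034 and 0.014 after quantile normalization.

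When the fold threshold was dropped, single genes could be described, with errors that cover duplicate arrays of the same RNA only. In TNFR KO hosts 10 subunit genes were higher at an adjusted p under 0.05 (9.43% of all genes) and 2 were lower (14.4% of all). In WT hosts 27 were higher (12.1% of all) and 2 were lower (13.4% of all). These counts are on the authors' scaling, and none were made under quantile normalization or centring, where the shift itself changed. The genes higher in both hosts were Ndufa12, Ndufa4l2, Ndufa7, Ndufb6, Ndufv1 and Uqcrq, 6 in all, which is 60% of the TNFR KO genes and 22.2% of the WT genes. These comparisons share no pool, but the overlap over all tested genes was not counted, so these shares are not set against a general rate. Ndufs1 was lower in both hosts.

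**Figure D2:**
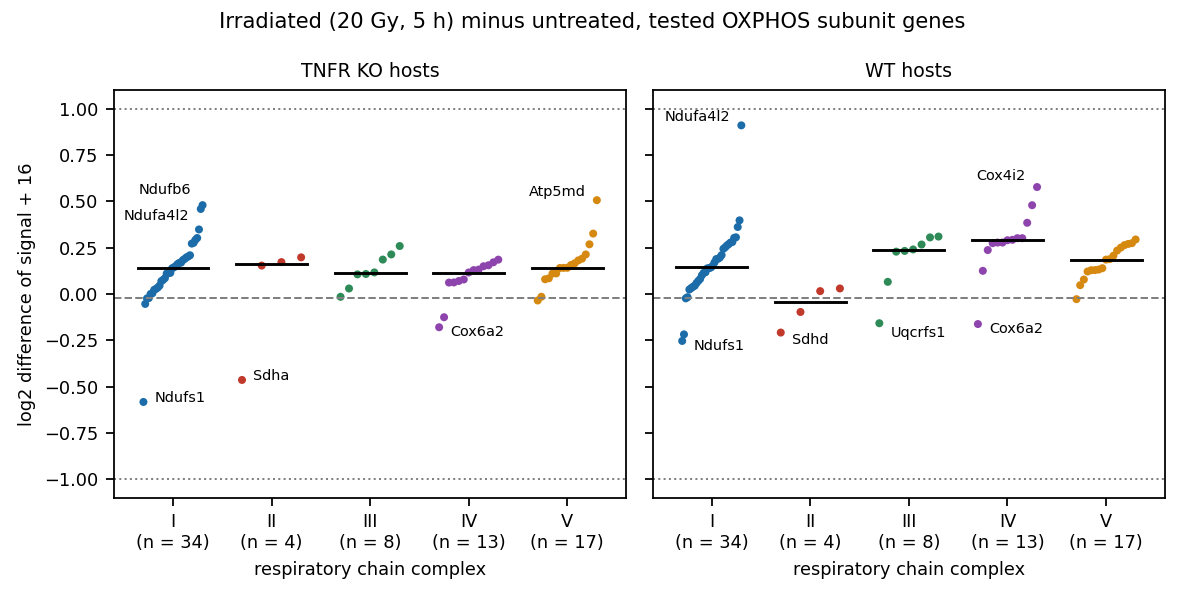
Irradiated minus untreated log2 difference (vertical axis, signal + 16) of each tested subunit gene by complex, in TNFR KO hosts (left) and WT hosts (right). Black bars are medians, the dashed line is the median of all tested genes and dotted lines mark 2-fold; points lie mostly between 0 and 0.5, with Ndufs1 and Sdha below in TNFR KO hosts and Ndufa4l2 near 1 in WT hosts.

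In complex I, the NADH dehydrogenase, the median difference after irradiation was 0.14 in TNFR KO and 0.15 in WT hosts. Quantile normalization gave 0.054 and 0.029. Ndufb6, an accessory subunit of the membrane arm, read 12501 and 12636 in TNFR KO irradiated and 9043 and 8979 in TNFR KO untreated arrays. It read 9639 and 10248 in WT irradiated and 8489 and 8202 in WT untreated arrays. Irradiated arrays were above untreated ones in each host, without overlap, and the TNFR KO irradiated arrays were the highest of all. The log2 differences were 0.48 in TNFR KO and 0.25 in WT hosts (adjusted p = 0.00521 and 0.0286 in limma), and a second probe set gave 0.33 and 0.22. Centring the arrays on their median set the WT difference to -0.0064.

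The NADH- and flavin-binding subunit Ndufv1 was also higher after irradiation, at 0.35 in TNFR KO and 0.28 in WT hosts (adjusted p = 0.0174 and 0.0328 in limma). Its signals were 8850 and 8844 in TNFR KO irradiated, 6943 and 6951 in TNFR KO untreated, 7282 and 6935 in WT irradiated and 5581 and 6151 in WT untreated arrays. Its partner Ndufv2 gave 0.03 and 0.14, and the iron-sulphur and quinone-module subunits Ndufs3, Ndufs7 and Ndufs8 gave 0.07, 0.17 and 0.19 in TNFR KO hosts and 0.10, 0.12 and 0.21 in WT hosts, none at an adjusted p under 0.05. The 2 arrays of Ndufs8 in TNFR KO irradiated tumours, 13992 and 17962, differed by more than most members' duplicates.

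Ndufs1, the largest iron-sulphur subunit of the electron-input module, moved the other way. It read 1323 and 1338 in TNFR KO irradiated and 2079 and 1925 in TNFR KO untreated arrays, against 2471 and 2429 in WT irradiated and 2867 and 2981 in WT untreated arrays. The 4 groups did not overlap, and every TNFR KO array lay below every WT array. Irradiation lowered it by log2 differences of -0.58 in TNFR KO (adjusted p = 0.00381 in limma) and -0.25 in WT hosts (adjusted p = 0.0338). Over both hosts the difference was -0.42 ± 0.17 and did not pass (adjusted p = 0.246 in limma). Only 1 probe set names Ndufs1.

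Complex II, succinate dehydrogenase, also links the chain to the citric acid cycle, and its subunits parted. Sdha, the flavoprotein that oxidises succinate, read 4043 and 4170 in TNFR KO irradiated and 5617 and 5723 in TNFR KO untreated arrays. In WT hosts it read 5957 and 5715 irradiated and 5635 and 5798 untreated. The TNFR KO irradiated arrays stood below all others, which overlapped. The radiation difference of Sdha was -0.46 in TNFR KO (adjusted p = 0.00521 in limma) and 0.03 in WT hosts. A second bright probe set of Sdha gave -0.44 and -0.11.

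Sdhd, a membrane anchor subunit, read 6423 and 6346 in TNFR KO irradiated and 5673 and 5658 in TNFR KO untreated arrays. It read 4480 and 4316 in WT irradiated and 5079 and 5086 in WT untreated arrays. All 4 groups were apart, with the irradiated arrays the highest in TNFR KO and the lowest in WT hosts. Its radiation differences were 0.17 in TNFR KO (adjusted p = 0.0656 in limma) and -0.21 in WT hosts (adjusted p = 0.0372). A second, dimmer probe set of Sdhd gave 0.27 and 0.10, so the fall in WT hosts rests on the brightest probe set. The iron-sulphur subunit Sdhb gave 0.15 and 0.02, and the other anchor, Sdhc, gave 0.20 and -0.10, with no adjusted p under 0.05. The median of complex II was 0.16 in TNFR KO and -0.04 in WT hosts, and under quantile normalization 0.081 and -0.18.

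**Figure D3:**
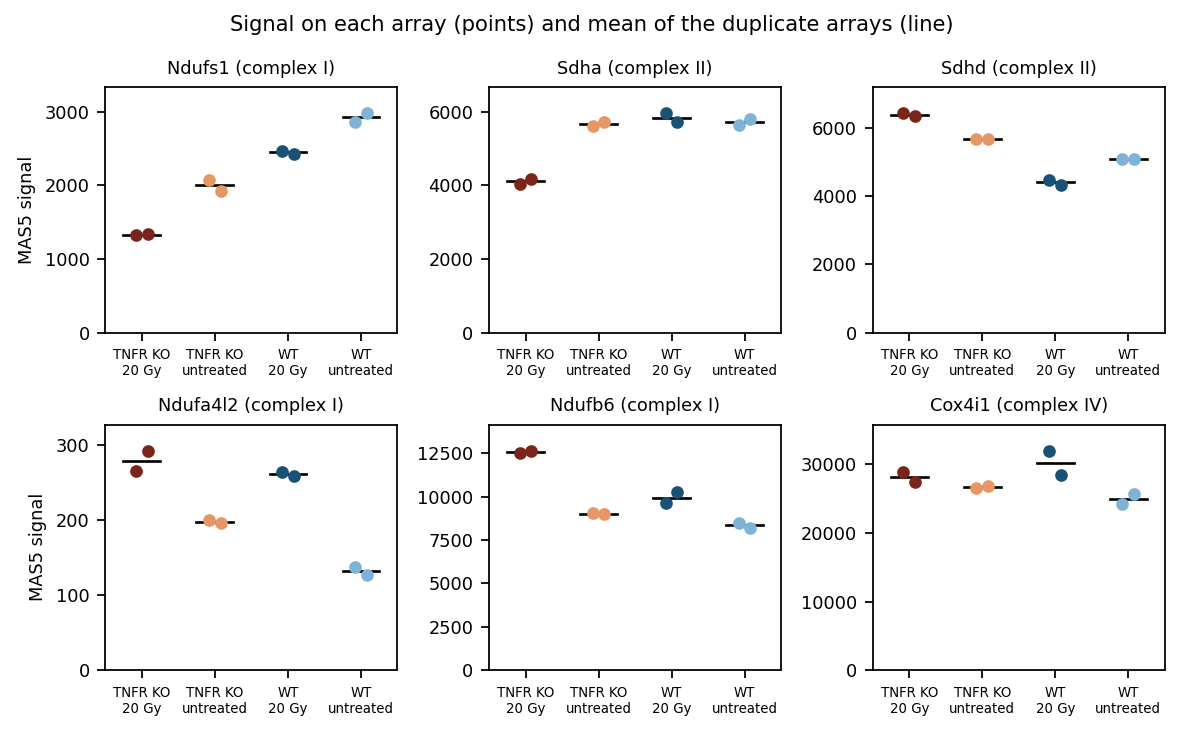
MAS5 signal on each array (points, linear scale from 0) and mean of the duplicates (bars) for 6 subunit genes, with TNFR KO irradiated and untreated left of WT irradiated and untreated. Ndufs1 is lowest in TNFR KO irradiated tumours, at 1323 and 1338, while Sdha is low only in that group and Sdhd is highest there.

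In complex III the medians were 0.11 in TNFR KO and 0.24 in WT hosts, with 7 of 8 genes above 0 in each; quantile normalization gave 0.011 and 0.073. Uqcrq, a small accessory subunit, was highest over both hosts at 0.26 ± 0.16 (adjusted p = 0.449 in limma), and Uqcrfs1, the Rieske iron-sulphur protein that carries electrons, was lowest at -0.06 ± 0.16. Uqcrc1 gave 0.21 in TNFR KO and 0.31 in WT hosts, while the other core protein, Uqcrc2, gave -0.02 and 0.07. Uqcrb, which helps to bind ubiquinone, read 31398 and 31155 in TNFR KO irradiated and 28755 and 29374 in TNFR KO untreated arrays, and 37272 and 34850 in WT irradiated and 28351 and 30005 in WT untreated arrays. Irradiated arrays were above untreated ones in each host, and the WT irradiated arrays were the highest.

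Complex IV, cytochrome c oxidase, had a median of 0.12 in TNFR KO and 0.29 in WT hosts. Quantile normalization gave -0.0013 and 0.016, with 6 and 9 of 13 genes above 0. Without a fold threshold, 0 of 13 genes were higher in TNFR KO hosts (9.43% of all tested genes) and 6 of 13 in WT hosts (12.1% of all). The 6 were Cox5a, Cox5b, Cox6b1, Cox6c, Cox7a2 and Cox8a, with log2 differences of 0.24 to 0.30. All 13 had a smaller radiation difference in TNFR KO than in WT hosts on the authors' scaling, by a median of -0.17, against -0.01 over all tested genes. Under quantile normalization the median was -0.03, with 4 of 13 above 0, against 0.02 over all tested genes. With arrays centred on their median 10 of 13 were above 0, at a median of 0.06 against 0.22 over all tested genes, a shift that is the same for every gene. Cox4i1, the common form of a regulatory subunit, read 28942 and 27446 in TNFR KO irradiated and 26549 and 26843 in TNFR KO untreated arrays, and 31981 and 28395 in WT irradiated and 24165 and 25687 in WT untreated arrays. Irradiated arrays were again above untreated ones, but the WT irradiated duplicates differed by more than the groups in TNFR KO hosts did.

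In complex V, the ATP synthase, the median was 0.14 in TNFR KO and 0.19 in WT hosts, and 0.042 and -0.01 under quantile normalization. The catalytic head subunits alpha and beta (Atp5a1 and Atp5b) gave 0.11 and 0.16 in TNFR KO and 0.13 and 0.19 in WT hosts. The central-stalk subunits gamma, delta and epsilon (Atp5c1, Atp5d and Atp5e) gave 0.11, 0.14 and 0.27 in TNFR KO and 0.05, 0.27 and 0.13 in WT hosts. Atp5md, a small membrane subunit, was highest over both hosts at 0.29 ± 0.17, and its duplicates in TNFR KO untreated tumours, 5736 and 4581, were far apart. Atp5j, part of the peripheral stalk, was lowest at -0.03 ± 0.16. Neither passed the test (adjusted p = 0.437 and 0.946 in limma).

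Whether the host's TNF receptors altered the subunits was asked next. Over both treatments 0 of 76 genes were higher in TNFR KO hosts, against 12% of all tested genes, and 1 was lower, against 18.9% of all. The 1 gene was Ndufs1, with a log2 difference of -0.71 ± 0.17, 1.63-fold lower (adjusted p = 0.0103 in limma). It was lower in both treatments, by -0.87 in irradiated and -0.54 in untreated tumours, and stayed below an adjusted p of 0.05 whichever array was left out. Without the filter on dim genes the limma fit called 0 of all genes, Ndufs1 included (adjusted p = 0.118), and its adjusted p ranged from 1.12e-05 to 0.118 over the alternatives. The subunit genes had a median host difference of 0.04, with 51 of 76 above 0, against 0.085 for all tested genes.

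**Figure D4:**
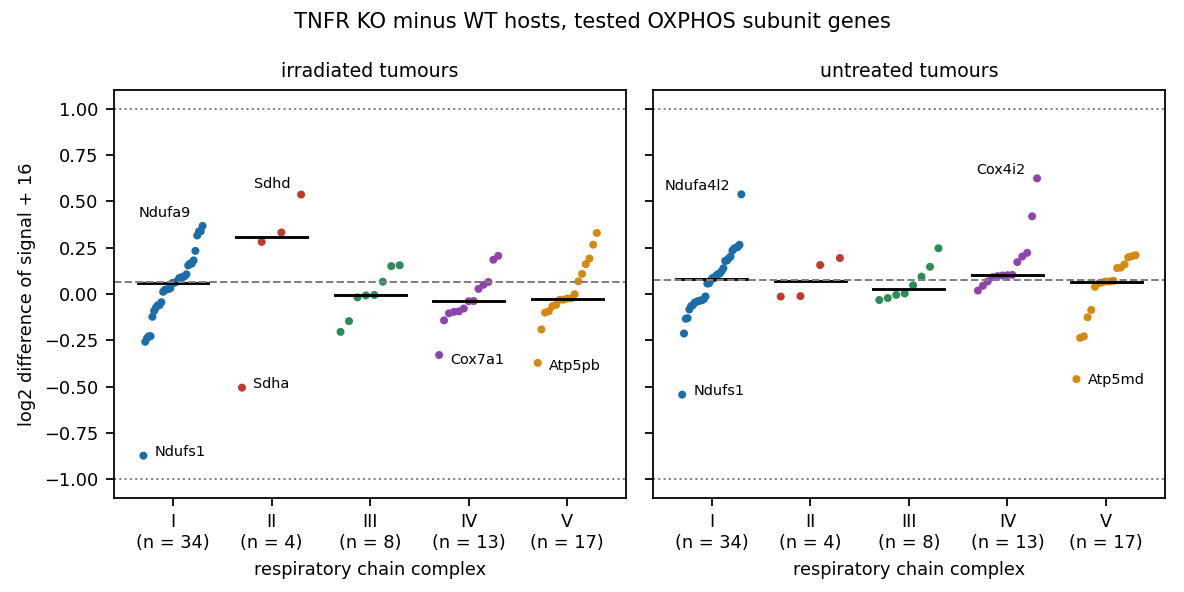
TNFR KO minus WT log2 difference (vertical axis, signal + 16) of each tested subunit gene by complex, in irradiated (left) and untreated tumours (right). Black bars are medians, the dashed line is the median of all tested genes and dotted lines mark 2-fold; Ndufs1 lies at -0.87 and -0.54, and no gene reaches 2-fold.

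In single-pool comparisons no subunit gene differed 2-fold between hosts. In irradiated tumours 0 were higher and 0 lower (0.793% and 7.43% of all tested genes), with 23 of 76 at an unadjusted p under 0.05 in limma (61.3% of all). In untreated tumours 0 were higher and 0 lower (2.06% and 6.25% of all), with 25 at an unadjusted p under 0.05 (56.8% of all). Without a fold threshold, 9 were higher and 9 lower in irradiated tumours (28.4% and 27.3% of all), and 14 were higher and 5 lower in untreated tumours (26.4% and 23.8% of all). Ndufa8, Ndufa9, Ndufv1 and Sdhb were higher in TNFR KO hosts in both treatments, and Ndufs1 and Atp5pb were lower in both. The overlap over all tested genes was not counted here either. The hosts are confounded with target preparation here, as the added controls show.

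Ndufa9, a complex I subunit at the junction of its arms, read 13201 and 13152 in TNFR KO irradiated against 10265 and 10159 in WT irradiated arrays, and 11909 and 11661 in TNFR KO untreated against 9650 and 10161 in WT untreated arrays. Its TNFR KO arrays were all above its WT arrays, with differences of 0.37 and 0.25. Atp5pb, the membrane-anchored subunit b of the peripheral stalk, read 12972 and 12821 in TNFR KO irradiated against 16175 and 17233 in WT irradiated arrays, and 13021 and 13045 in TNFR KO untreated against 15250 and 15299 in WT untreated arrays. Every TNFR KO array was below every WT array. The differences of Atp5pb were -0.37 and -0.23, its second probe set gave -0.53 and -0.66, and over both treatments it was the lowest gene of complex V at -0.30 ± 0.16 (adjusted p = 0.177 in limma).

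The other extremes of the host comparison did not pass. In limma they were Ndufa4l2 in complex I (0.31 ± 0.17, adjusted p = 0.193), Sdha and Sdhd in complex II (-0.26 ± 0.18 and 0.35 ± 0.17, adjusted p = 0.282 and 0.145), Uqcrb and Uqcrc1 in complex III (-0.10 and 0.20) and Atp5g1, a gene for the c ring, in complex V (0.24). Complex IV ran from Cox7a1 at -0.16 to Cox8c at 0.31. The median of complex IV was 0.10 in untreated tumours, with 13 of 13 above 0, and -0.04 in irradiated tumours, with 5 of 13 above 0. With arrays centred on their median, which moves every gene alike, 4 of 13 were above 0 in untreated tumours, at a median of -0.09 against -0.12 over all tested genes.

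Whether irradiation acted differently in the 2 hosts was then fitted. With the 2-fold threshold, 0 subunit genes had a larger difference in TNFR KO hosts (0.159% of all genes) and 0 a smaller one (2.05% of all), with 10 of 76 at an unadjusted p under 0.05 in limma (28.8% of all). Without it, 1 was larger, Sdhd (3.52% of all), and 2 were smaller, Sdha and Ndufa4l2 (6.04% of all). The difference for Sdha was -0.49 (adjusted p = 0.0229), for Sdhd 0.38 (adjusted p = 0.0365) and for Ndufa4l2 -0.45 (adjusted p = 0.0483). The adjusted p was over 0.05 for each of them whichever array was left out, at 0.0597 to 0.0812 for Sdha, 0.0783 to 0.105 for Sdhd and 0.0706 to 0.131 for Ndufa4l2. A second probe set of Sdha gave -0.33 and one of Sdhd 0.17.

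Several subunits have forms made mainly in particular tissues. Ndufa4l2 is a paralogue of Ndufa4 that is known to be induced by hypoxia-inducible factor 1 and to restrain respiration. It read 265.0 and 292.5 in TNFR KO irradiated and 200.7 and 195.8 in TNFR KO untreated arrays, and 264.3 and 258.4 in WT irradiated and 137.1 and 126.3 in WT untreated arrays. The untreated WT arrays were the lowest, and the irradiated arrays of both hosts lay close together. Its radiation difference was 0.46 in TNFR KO (adjusted p = 0.00968 in limma) and 0.91 in WT hosts (adjusted p = 0.00133), or 1.88-fold. Over both hosts it was 0.68 ± 0.17 (adjusted p = 0.0822), past the threshold with a pseudocount of 64 (0.56, adjusted p = 0.0321). Ndufa4, grouped here with complex I by its name though now assigned to complex IV, gave 0.00 and 0.08.

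Cox4i2, the form of Cox4 known from lung and hypoxic cells, read 200.8 and 118.5 in TNFR KO irradiated and 182.3 and 159.0 in TNFR KO untreated arrays, and 167.1 and 161.6 in WT irradiated and 111.5 and 98.6 in WT untreated arrays. The WT untreated arrays were again the lowest, but the TNFR KO irradiated duplicates spanned those of TNFR KO untreated and WT irradiated tumours. Its radiation differences were -0.13 in TNFR KO and 0.58 in WT hosts (adjusted p = 0.704 and 0.103 in limma). Ndufa4l2 and Cox4i2 are both known in pericytes, and among 8 pericyte and smooth muscle markers, 7 of them tested, 2 were higher and 1 lower in TNFR KO hosts (12% and 18.9% of all tested genes) and 1, Notch3, was higher after irradiation (1.55% of all). The Notch3 call was lost with any array left out, under quantile normalization and with arrays centred on their median. Their summed signal was 7501 to 7887 in TNFR KO irradiated, 6713 to 6985 in TNFR KO untreated, 4737.2 to 4737.4 in WT irradiated and 4509 to 4687 in WT untreated arrays. The median radiation difference of the 7 markers was 0.18 in TNFR KO and 0.02 in WT hosts, with 4 of 7 above 0 in each. Their part in the values of Ndufa4l2 and Cox4i2 was not tested.

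The hypoxia and glycolysis list, which contains Ndufa4l2, had 0 of 14 tested genes called higher or lower after irradiation or between hosts. Of all tested genes 1.55% and 0.353% were called higher and lower after irradiation, and 12% and 18.9% between hosts. The median radiation difference of the list was 0.12 in TNFR KO and 0.28 in WT hosts. The glucose transporter Slc2a1 gave 0.19 and 0.98, and Egln3, an oxygen-sensing prolyl hydroxylase induced by hypoxia, gave 0.34 and 0.92.

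The heart and skeletal muscle forms were dim and did not pass in any comparison. Cox6a2 read 101.3 to 204.6 over all arrays, with differences of -0.18 in TNFR KO and -0.16 in WT hosts after irradiation, and it was the lowest of complex IV over both hosts at -0.17 ± 0.16. Cox7a1 read 128.9 to 209.0, with 0.13 and 0.48, and was the highest at 0.31 ± 0.17. Cox8b, at 2.8 to 20.4, was below the level tested. Skeletal muscle markers moved more than these forms. Of 12 tested among 16, 8 were lower in TNFR KO hosts (18.9% of all tested genes) and 6 were lower after irradiation (0.353% of all). All 6 radiation calls (Acta1, Myh1, Myl1, Tnni2, Tnnc2 and Actn3) were lost under quantile normalization and without the filter on dim genes. Each of these calls was also lost when certain single arrays were left out. The summed signal of the 16 markers was 3934 to 4335 in TNFR KO irradiated, 5101 to 5328 in TNFR KO untreated, 3977 to 3989.8 in WT irradiated and 6912 to 7093 in WT untreated arrays. Myh2, Myh4, Tnnt3 and Mb were below the level tested. The part of muscle in the subunit values was not tested. Other cell types differed too. Their highest summed marker signals follow for TNFR KO irradiated, TNFR KO untreated, WT irradiated and WT untreated arrays, in that order. Macrophage markers gave 9674, 14733, 13443 and 6889, and neutrophil markers 1261, 1101, 24352 and 4089. Erythroid markers gave 5151, 682, 1973 and 664, and fibroblast markers 10052, 15253, 7419 and 4891. The part of these cells in the subunit values was not tested.

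The common counterparts Cox6a1, Cox6b1, Cox7a2 and Cox8a gave 0.06, 0.15, 0.07 and 0.15 after irradiation in TNFR KO hosts and 0.30, 0.29, 0.28 and 0.24 in WT hosts. Among forms known from testis, Cox8c read 251.4 to 437.1 and was higher in TNFR KO than WT untreated tumours by 0.42 (adjusted p = 0.0239 in limma). Its signals there were 383.3 and 389.0 in TNFR KO against 322.3 and 251.4 in WT arrays. Cox6b2, at 6.6 to 85.7, and Cox7b2, at 0.9 to 18.2, were not tested.

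Ndufb4 and Cox7c, parts of complexes I and IV in most cells, also fell below the level tested, at 10.5 to 53.6 and 4.4 to 108.9. For Ndufb4 a brighter probe set that also names Ndufb4b and Ndufb4c read 11955 to 14354, with radiation differences of 0.23 in TNFR KO and 0.14 in WT hosts. In all, 9 probe sets named a subunit gene beside another gene and were not counted. Ndufa11 and Ndufs6 had only such probe sets, with differences of 0.32 and 0.25 in TNFR KO and 0.20 and 0.05 in WT hosts for the brightest of each.

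Genes that work with the subunits were described from lists of their own. Of 41 tested assembly factors, 4 were higher and 3 lower in TNFR KO hosts, where 12% and 18.9% of all tested genes were called, so these counts lay below the general rate. None was called after irradiation (1.55% and 0.353% of all). Ttc19, which acts in complex III assembly, was higher by 0.76 ± 0.20, and Sdhaf1, an assembly factor of complex II, by 0.66 ± 0.17. Cox20, a chaperone of complex IV, was lower by -0.68 ± 0.16 and Tmem126b, of complex I, by -0.58 ± 0.19 (adjusted p = 0.0173, 0.0130, 0.0102 and 0.0396 in limma). The calls of Ttc19 and Cox20 were lost when a gene's probe sets were averaged, and those of Ttc19 and Tmem126b when certain single arrays were left out (6 and 7 of the 8). That of Sdhaf1 was lost with arrays centred on their median. Sdhaf1 read 2382 and 2364 in TNFR KO irradiated and 1567 and 1426 in TNFR KO untreated arrays, and 1378 and 1335 in WT irradiated and 1070 and 994.6 in WT untreated arrays. Its lowest arrays were the WT untreated ones.

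**Figure D5:**
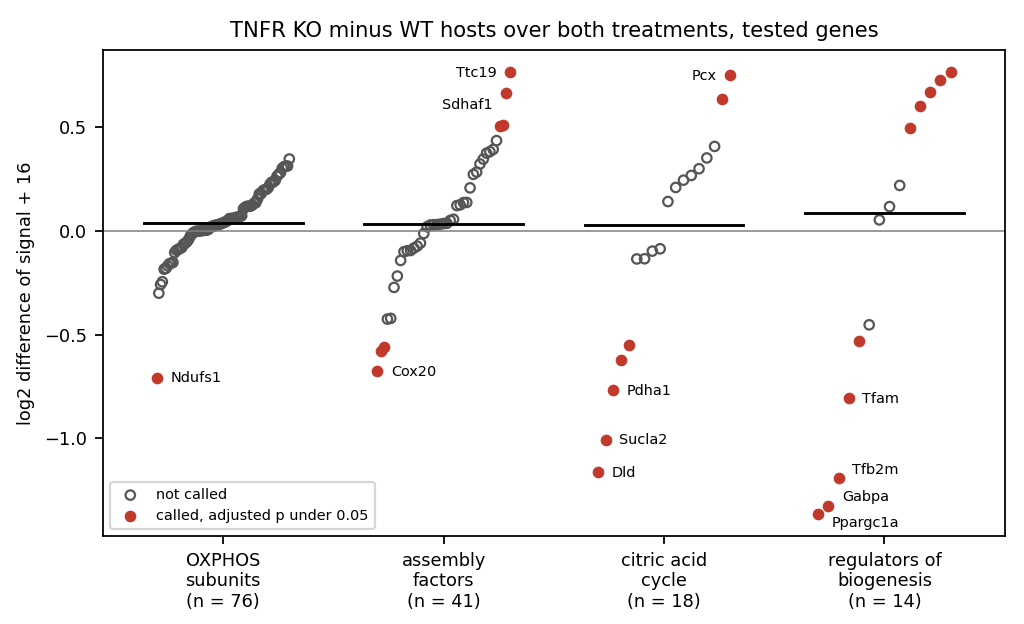
TNFR KO minus WT log2 difference over both treatments (vertical axis, signal + 16) of tested subunit genes, assembly factors, citric acid cycle genes and regulators of mitochondrial biogenesis. Filled points passed an adjusted p of 0.05 in limma and bars are medians; filled points number 1 of 76, 7 of 41, 7 of 18 and 10 of 14, where 12% of all tested genes were called higher and 18.9% lower.

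Of 18 tested genes of pyruvate oxidation and the citric acid cycle, 2 were higher and 5 lower in TNFR KO hosts (12% and 18.9% of all tested genes). After irradiation 0 were called (1.55% and 0.353% of all). Dld, the dihydrolipoamide dehydrogenase shared by several mitochondrial complexes, read 492.7 and 488.2 in TNFR KO irradiated and 582.1 and 539.2 in TNFR KO untreated arrays, against 1089 and 1313 in WT irradiated and 1158 and 1229 in WT untreated arrays. It was lower by -1.16 ± 0.16 (adjusted p = 7.21e-04 in limma). Sucla2, a succinyl-CoA ligase subunit, was lower by -1.01 ± 0.17 and Pdha1, of pyruvate dehydrogenase, by -0.77 ± 0.17, while pyruvate carboxylase, Pcx, was higher by 0.75 ± 0.17 (adjusted p = 0.00157, 0.00757 and 0.00899). The calls of Dld and Sucla2 were lost when a gene's probe sets were averaged.

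Regulators of mitochondrial biogenesis split, with 5 higher and 5 lower of 14 tested in TNFR KO hosts, or 2 higher and 5 lower with arrays centred on their median. Of all tested genes 12% were called higher and 18.9% lower. Ppargc1a, which encodes PGC-1 alpha, read 964.4 and 1184 in TNFR KO irradiated and 1370.1 and 1349 in TNFR KO untreated arrays, against 3170 and 3299 in WT irradiated and 3022 and 3034 in WT untreated arrays. All its TNFR KO arrays were below all WT arrays, by -1.36 ± 0.17, or 2.57-fold (adjusted p = 4.51e-04 in limma). Gabpa, the DNA-binding part of GABP, which binds the ETS letters given above, read 293.6 and 281.0 in TNFR KO irradiated and 348.0 and 345.0 in TNFR KO untreated arrays, against 775.3 and 757.6 in WT irradiated and 884.3 and 844.7 in WT untreated arrays. It was lower by -1.32 ± 0.16 (adjusted p = 3.62e-04). Tfb2m and Tfam, which act in the transcription of mitochondrial DNA, were lower by -1.19 ± 0.16 and -0.81 ± 0.16 (adjusted p = 6.60e-04 and 0.00447). These 4 calls held under quantile normalization, with arrays centred on their median, with a gene's probe sets averaged and with any array left out, and were lost without the filter on dim genes. Among the 5 higher genes, Polrmt, which also acts in that transcription, gave 0.76 (adjusted p = 0.00638 in limma). The PGC-1 family genes Pprc1 and Ppargc1b gave 0.73 and 0.67 (adjusted p = 0.00734 and 0.0111). These higher calls were lost without the filter on dim genes, and that of Ppargc1b also with arrays centred on their median. After irradiation 1 regulator was called higher (1.55% of all tested genes), the nuclear receptor gene Esrra, at 0.79 ± 0.16 (adjusted p = 0.0373). Its call was lost with any array left out and under quantile normalization.

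The 6 electron carriers and complex partners outside the naming rule were all tested. In TNFR KO hosts 0 were higher (12% of all tested genes) and 2 were lower (18.9% of all). The 2 lower were Etfdh and Etfa, which feed electrons from fatty acid oxidation into ubiquinone. Etfdh read 667.5 and 629.1 in TNFR KO irradiated and 680.2 and 638.4 in TNFR KO untreated arrays, against 1285 and 1417 in WT irradiated and 1382 and 1321 in WT untreated arrays, with a host difference of -1.03 ± 0.16 (adjusted p = 0.00119 in limma). Etfa was lower by -0.76 ± 0.16 (adjusted p = 0.00653). Of 12 tested carriers and coupling genes, 0 were called between hosts (12% higher and 18.9% lower of all) or after irradiation (1.55% and 0.353% of all). Of the 13 subunits encoded in mitochondrial DNA, 1 was read, ND5 of complex I. It read 8555 and 8849 in TNFR KO irradiated and 8749.6 and 8892 in TNFR KO untreated arrays, and 13204 and 13869 in WT irradiated and 10971 and 9922 in WT untreated arrays. All its TNFR KO arrays were below its WT arrays, at -0.44 over both treatments, which did not pass (adjusted p = 0.0754 in limma).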

How the data were processed

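Total RNA of whole tumours was pooled by group, labelled and measured on Affymetrix Mouse Genome 430 2.0 arrays, 2 per pool, per the labels' protocols. The deposited values are signal intensities on a linear scale, made by the authors with MAS5 per the submitters' processing notes, whose version is not given in the sources used here. Of 45101 probe sets, 34945 named 1 gene, 932 several and 9160 none in the platform annotation, and 64 were controls. Genes were read from their brightest single-gene probe set and tested where its mean log2(signal + 16) reached the median of non-control probe sets.

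Host (across treatments) and radiation (across hosts) were estimated with limma 3.58.1 in R 4.3.3 on the 4 pool means, with 1 residual degree of freedom, and called at a Benjamini-Hochberg adjusted p under 0.05 over 11345 genes. In the fit of pool means the residual is the departure from additive host and radiation effects. To it limma added 9.52 prior degrees of freedom drawn from all tested genes. Errors of that fit do not measure the spread between animals. Single-pool contrasts used the 8 arrays, with 4 residual degrees of freedom, and also required 2-fold. Duplicates are technical, so those p-values cover the spread between arrays of the same RNA. The number of arrays limits the precision. Duplicate numbers did not pair the arrays, since deviations of same-numbered arrays correlated at -0.032 to 0.052. Scripts were tested on simulated data.

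Genes named are those called, the highest and lowest of each complex for host and radiation, the core and catalytic subunits, the tissue isoforms with their common counterparts, and genes called in related lists. Others named (Ndufb6, Ndufa9, Slc2a1 and Egln3 among them) were picked after their values were seen. The members and lists were chosen with earlier results of these data known. Alternatives were other scaling, pseudocount, filter, probe set rule, fold threshold, fits and omitted arrays. Figures used matplotlib 3.10.9. Promoters came from RefSeq.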

Additional observations from a re-analysis of the deposited data

Results flagged for a closer look

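Sdha, Sdhd and Ndufa4l2 differed between hosts in their response to irradiation by the limma interaction term on 8 arrays. The TNFR KO minus WT difference of the radiation effects was -0.49 for Sdha, 0.38 for Sdhd and -0.45 for Ndufa4l2 (adjusted p = 0.0229, 0.0365 and 0.0483 in limma). Over 17 alternatives that of Sdha ran from -0.58 to -0.27, with 5 at an adjusted p under 0.05, and that of Sdhd from 0.28 to 0.61, with 6. Over 16 alternatives that of Ndufa4l2 ran from -0.52 to -0.22, with 1. Each group was 1 pool, so the differences have no check between animals.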

How the results depend on the processing

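Of 502 alternative values of named subunit genes, 471 kept their direction and side of the threshold, 28 passed it newly, 1 no longer passed (Ndufs1 between hosts without the filter) and 2 turned sign. With arrays centred on their median, Ndufb6 after irradiation in WT hosts was -0.0064 and Sdhd between untreated hosts -0.040. The threshold for single-pool comparisons and the interaction includes 2-fold, which no subunit gene reached in the main fit. A gene that stayed uncalled there counts as kept, and no loss could be counted. By adjusted p alone, most alternatives of the interaction of Sdha, Sdhd and Ndufa4l2 were over 0.05, as given above. Quantile normalization gave median differences of the subunits of 0.025 for radiation over both hosts, 0.034 for radiation in TNFR KO, 0.014 for radiation in WT, 0.012 for host in untreated tumours and 0.017 for the interaction. Centring, which shifts all genes of a comparison alike, gave -0.043 for host over both treatments, 0.028 for radiation over both hosts, -0.069 for radiation in WT, -0.12 for host in untreated tumours and 0.16 for the interaction. Leaving out single arrays moved the median for radiation in WT between 0.15 and 0.21. The causes were not tested.

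Calls over both levels of the other factor depended on the fit. A pseudocount of 64 called 1 gene higher after irradiation (Ndufa4l2), averaged probe sets 1 higher between hosts (Atp5g2), and no filter 0 lower between hosts, where 0 of all genes were called. In limma-trend 4 were higher and 2 lower between hosts and 3 higher after irradiation. With 8 arrays as samples and no replicate block, 16 were higher and 6 lower between hosts, and 24 higher and 1 lower after irradiation. With the duplicate number as a replicate block these were 14 and 4, and 9 and 1. Both fits treat technical duplicates as samples. The share of all tested genes called in them and in limma-trend is not given here, so these counts cannot be read as a result about the subunits.

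Without a fold threshold, calls higher and lower were 10 and 2 for radiation in TNFR KO, 27 and 2 in WT, 9 and 9 between irradiated hosts, 14 and 5 between untreated hosts, and 1 and 2 for the interaction. The shares of all tested genes beside these counts are given above. At 1.5-fold, 1 was higher after irradiation in WT (Ndufa4l2) and 1 lower between irradiated hosts (Ndufs1). The share of all tested genes at 1.5-fold is not given here, so those counts cannot be read as a result about the subunits. Leaving out single arrays gave 0 to 1 lower for the interaction, the 1 being Cox4i2 without the first TNFR KO irradiated array. No detection call or background value was used, so how far dim genes such as Cox6a2 stand above background is not known.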
